A study of Oryza longistaminata with 9 samples.

Results

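Lipid transfer genes were taken from the deposited gene table as every gene model whose description holds the words lipid transfer, and this gave 89 of 46327 gene models. By their descriptions they fall into 3 types: 18 non-specific lipid transfer proteins, 64 probable lipid transfer proteins, which carry the Pfam domain of that name, and 7 glycolipid transfer proteins, which the same words also match. Messenger RNA was sequenced from anthers of Oryza longistaminata, a wild perennial rice, to follow gene expression through pollen development. The comparison is between 2 groups of 3 libraries: anthers of 4-mm spikelets (Ls-4mm, stage 4, when the first sporogenous cells arise) and anthers of 6-mm spikelets (Ls-6mm, stage 6, when the anther wall is layered and the pollen mother cells touch the tapetum). The labels name no treatment, genotype or plant age and do not state if replicates are separate plants, so p-values measure only the spread between libraries, which may be technical. Whole anthers were used, so their cell layers stand together in every library.

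Lipid transfer proteins are small, cysteine-rich proteins whose helices fold around a hydrophobic cavity that can hold a lipid. Most carry a signal peptide and are secreted, and some stay at the cell surface through a lipid anchor. In plants they are known for roles in cuticle formation, defence and, in anthers, the supply of wall material from the tapetum, the nurse tissue around the pollen mother cells, to the pollen surface. Glycolipid transfer proteins are unrelated in fold to these and move sphingolipids between membranes inside the cell.

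The 3 libraries of Ls-4mm held 14509449 to 16684146 counts and the 3 of Ls-6mm 17076800 to 21232663. Levels of one gene in the different libraries are given as counts scaled to a library of 1000000 (CPM) with TMM factors. Where a gene had no count in a stage, up to 3 counts are allowed, which is 0.0605 CPM for Ls-4mm and 0.0563 CPM for Ls-6mm and covers counting error only. Among 23691 genes tested with edgeR, 80.6% were called at a Benjamini-Hochberg adjusted p below 0.05, 42% higher and 38.6% lower in Ls-6mm, with a median log2 fold change of 0.04. Scaling by library size alone moved that median to -0.10. Genes of several lists of cell type markers, picked by words, moved with the stage. Of 18 tapetum markers, 13 were tested, 12 rose and 1 fell, and their summed level went from 111 to 128 CPM in Ls-4mm to 507 to 517 CPM in Ls-6mm, with 10 of the 18 at 0 in Ls-4mm and 1 at 0 in Ls-6mm. The larger part of that sum was BGIOSGA009804, a strictosidine synthase (111 ± 8.19 and 466 ± 5.61 CPM, SD, n = 3). The list was picked partly by the words strictosidine synthase. The study first describes a tapetum after Ls-4mm, and what this sum marks in Ls-4mm was not tested. Of 103 genes picked as pollen markers, 46 were tested, 33 rose and 7 fell (1257 to 1419 CPM against 14724 to 15189 CPM). Of the 103, 43 were at 0 in Ls-4mm and 28 in Ls-6mm, and 50 carry a domain shared with expansins. The study places both stages before pollen forms, and what cells these genes mark here was not tested. Of 29 green tissue markers, 27 were tested, 23 rose and 3 fell (1775 to 2064 CPM against 4435 to 4566 CPM, 1 at 0 in each stage). The 6 dividing cell markers fell (1131 to 1149 CPM against 170 to 176 CPM, none at 0). Of 4 meiocyte markers 3 were tested, 1 fell and 2 did not pass the test (74.6 to 86.3 CPM against 29.2 to 32.9 CPM, 1 at 0 in each stage). Most of that fall in the sum was BGIOSGA014841, with a HORMA domain (56 ± 5.05 and 9.52 ± 0.717 CPM, SD, n = 3). The part of these shifts in the results that follow was not tested, and in bulk anthers fewer cells of a type and less RNA per cell cannot be told apart.

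Lipid transfer transcripts were several times more abundant in Ls-6mm than in Ls-4mm. The 89 gene models together gave 1715, 1977 and 1939 CPM in the libraries of Ls-4mm and 10501, 9711 and 10085 CPM in those of Ls-6mm, so the lowest library of Ls-6mm lay far above the highest of Ls-4mm. As a share of all counts this was 0.197% ± 0.0131 (SD, n = 3) against 0.963% ± 0.0353 (SD, n = 3). A few genes carried most of it. In Ls-4mm the non-specific gene BGIOSGA000576 held 47.6% of the summed level, and in Ls-6mm the probable gene BGIOSGA003020 and the non-specific gene BGIOSGA036880 together held 62.5%. Without BGIOSGA003020 the sums were 1877 ± 142 CPM and 6352 ± 305 CPM (SD, n = 3), a ratio of 3.38 in place of 5.38.

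**Figure D1:**
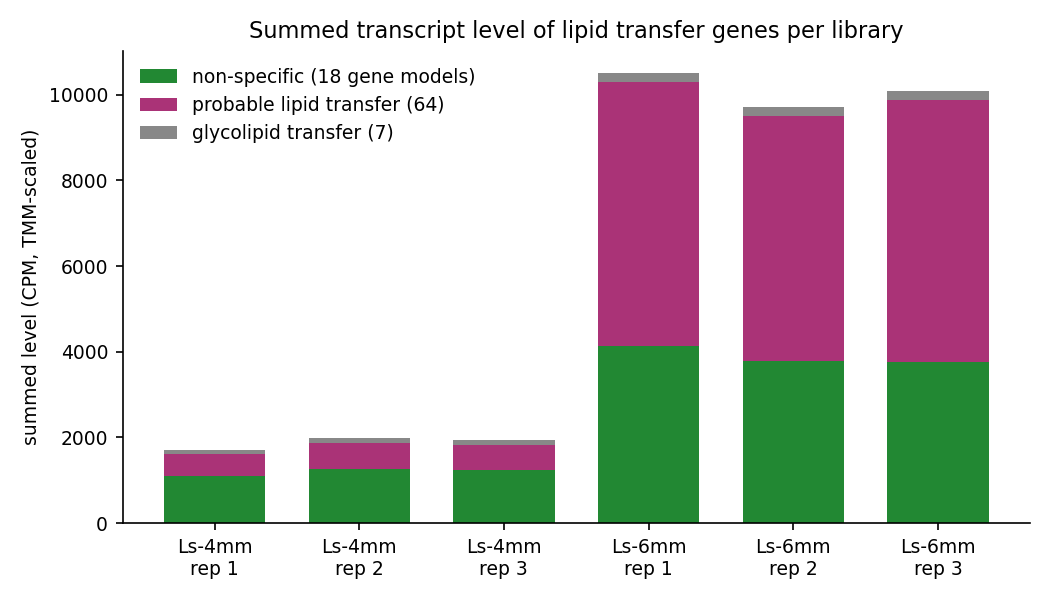
Summed level of the lipid transfer genes in each library (y axis, CPM after TMM scaling; x axis, the 3 libraries of each stage), stacked by type. The sums lie between 1715 and 1977 CPM in Ls-4mm and between 9711 and 10501 CPM in Ls-6mm, and the probable type is the larger part only in Ls-6mm.

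Of the 89, 10 had 0 counts in all 6 libraries, 79 were detected and 56 had enough counts to be tested. Of these 56, 46 rose (82.1%, where 42% of all genes tested rose) and 4 fell (7.14%, where 38.6% fell), while 6 did not pass the test. At a change of at least 2-fold, 41 rose and 1 fell, against 24.7% and 14.4% of all genes tested. The libraries of the stages did not overlap for 51 of the 56, or 91.1%, where 81.7% of all genes tested showed no overlap. The median log2 fold change over the 56 was 3.0. A gene that was high only in Ls-6mm could pass the filter through that stage, so these counts describe the 56 and not the 33 that were not tested. Those 33 had at most 50 counts over the 6 libraries. Without 4 genes whose assignment of reads is uncertain, 42 rose and 4 fell. Leaving out the first library of Ls-6mm raised the number that fell from 4 to 7.

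The types differed in how their levels were divided between the stages. The non-specific type led in Ls-4mm, at 1202 ± 95.1 CPM against 568 ± 50.1 CPM for the probable type (SD, n = 3), and the order was turned in Ls-6mm, at 3895 ± 212 CPM against 5994 ± 231 CPM. The ratio of non-specific to probable was 2.14, 2.11 and 2.10 in the libraries of Ls-4mm and 0.673, 0.659 and 0.617 in those of Ls-6mm. Without BGIOSGA003020 the probable type reached 2247 ± 99.3 CPM in Ls-6mm, below the non-specific type. Without the most abundant gene of each type in Ls-6mm, BGIOSGA036880 and BGIOSGA003020, the non-specific type went from 960 ± 81.6 to 1326 ± 48.5 CPM and the probable type from 568 ± 50.1 to 2247 ± 99.3 CPM, and the order turned again. The glycolipid type was minor throughout, at 106 ± 3.93 CPM and 210 ± 5.03 CPM.

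Of the 18 non-specific genes, 10 were tested, 9 rose, 0 fell and 1 did not pass the test. At an unadjusted p below 0.05, 0 fell as well with edgeR, and 0 were called lower with DESeq2 or limma. Their median log2 fold change was 3.95, or 3.49 with genes at 0 in Ls-4mm set to their lower bound. The most abundant was BGIOSGA036880 (LTP110-A, chromosome 12 from 906673 to 907138), with 225, 246 and 255 CPM in Ls-4mm and 2769, 2503 and 2433 CPM in Ls-6mm. Its libraries of Ls-6mm lay about an order of magnitude above those of Ls-4mm, with a log2 fold change of 3.41 ± 0.05 (SE, edgeR adjusted p = 1.39e-18, n = 3 per stage). This 1 gene made up most of the rise of its type. Without it the non-specific sum went from 960 ± 81.6 to 1326 ± 48.5 CPM (SD, n = 3), a ratio of 1.38 in place of 3.24.

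The next most abundant of the type, BGIOSGA000576 (UniProt entry A2WWG7, chromosome 1 from 38570385 to 38570833), was the exception to the rise. It had 809, 953 and 915 CPM in Ls-4mm and 864, 799 and 848 CPM in Ls-6mm. The stages overlapped, and the log2 fold change of -0.09 ± 0.05 (SE) did not pass the test (edgeR adjusted p = 0.0951). A small fall was called with library size alone (log2 fold change -0.23, adjusted p = 0.000148), with no filter (-0.11, adjusted p = 0.00858) and without the first library of Ls-4mm (-0.16, adjusted p = 0.000193), all by edgeR. It did not pass with the other settings tried.

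Below it stood BGIOSGA036879 (A2ZHE8, chromosome 12 from 902192 to 902645), a direct neighbour of BGIOSGA036880, with 46.6, 57.9 and 56.7 CPM in Ls-4mm and 308, 277 and 293 CPM in Ls-6mm. Every library of Ls-6mm stood above every library of Ls-4mm, at a log2 fold change of 2.44 ± 0.06 (SE, edgeR adjusted p = 9.74e-16). On chromosome 11, 3 genes were at intermediate levels. BGIOSGA034682 (LTP2-A) rose from 1.5, 2.08 and 1.65 CPM to 82.0, 83.2 and 79.3 CPM, a larger change than that of BGIOSGA036879 or BGIOSGA036880, at a log2 fold change of 5.53 ± 0.09 (SE, edgeR adjusted p = 3.07e-18). BGIOSGA034679 (A2ZAS8) rose from 8.13, 10.4 and 8.98 CPM to 72.1, 73.5 and 72.1 CPM (log2 fold change 2.98 ± 0.07, SE, edgeR adjusted p = 5.47e-16). BGIOSGA034680 (LTP110-A) rose from 1.04, 1.04 and 0.295 CPM to 18.8, 16.1 and 18.7 CPM, with the third library of Ls-4mm well below the other two. The stages did not overlap for any of these genes.

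Further rises were found at lower levels. BGIOSGA020050 (A2Y5R8, chromosome 5 from 24934756 to 24935172), the longest coding sequence of the type at 417 bases, went from 1.30, 1.10 and 1.48 CPM to 11.1, 12 and 10.6 CPM. BGIOSGA034686 (A2ZAT2, chromosome 11 from 409680 to 410142) was almost silent in Ls-4mm, at 0.065, 0 and 0.0591 CPM, and was at 9.32, 9.41 and 8.05 CPM in Ls-6mm. From its counts the ratio was 222, with a 95% counting interval of 61.2 to 1842. Both were above their Ls-4mm range in every library of Ls-6mm.

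A pair of non-specific genes had 0 counts in the 3 libraries of Ls-4mm and were still tested. BGIOSGA036881 (LTP2-A, chromosome 12 from 912013 to 912471) was at 2.21, 1.87 and 1.54 CPM in Ls-6mm and so at least 31.0-fold higher (edgeR adjusted p = 1.23e-07). BGIOSGA022353 (A2Y9K5, chromosome 6 from 3486184 to 3486664) was at 0.657, 0.641 and 0.860 CPM, at least 11.9-fold higher (edgeR adjusted p = 1.52e-05). Of the 8 non-specific genes that were not tested, 5 more had counts in Ls-6mm alone, none had counts in Ls-4mm alone, and 1 had no counts. Among them BGIOSGA021090 (B8B3D2, chromosome 6) had 11, 11 and 9 counts in Ls-6mm, and BGIOSGA035187 (A2ZDR8, chromosome 11) had 13, 13 and 7 counts in Ls-4mm and 6, 2 and 9 in Ls-6mm.

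Some of these genes may share reads, which counting could have split. BGIOSGA034680 on chromosome 11 and BGIOSGA036880 on chromosome 12 carry the same UniProt entry (A2ZAS9), as do BGIOSGA034682 on chromosome 11 and BGIOSGA036881 on chromosome 12 (A2ZAT0), so each pair encodes the same listed protein and its division between the loci is uncertain. In Ls-4mm 99.7% of the first pair's counts, and in the later stage 99.3%, were given to the copy on chromosome 12. Of the second pair's counts, 100% and 97.8% were given to the copy on chromosome 11. Summed over both loci, LTP110-A went from 243 ± 15.2 to 2586 ± 178 CPM and LTP2-A from 1.74 ± 0.300 to 83.4 ± 2.25 CPM (SD, n = 3), so their rises do not depend on the division. Without these 4 genes, 5 of 6 tested non-specific genes rose.

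**Figure D2:**
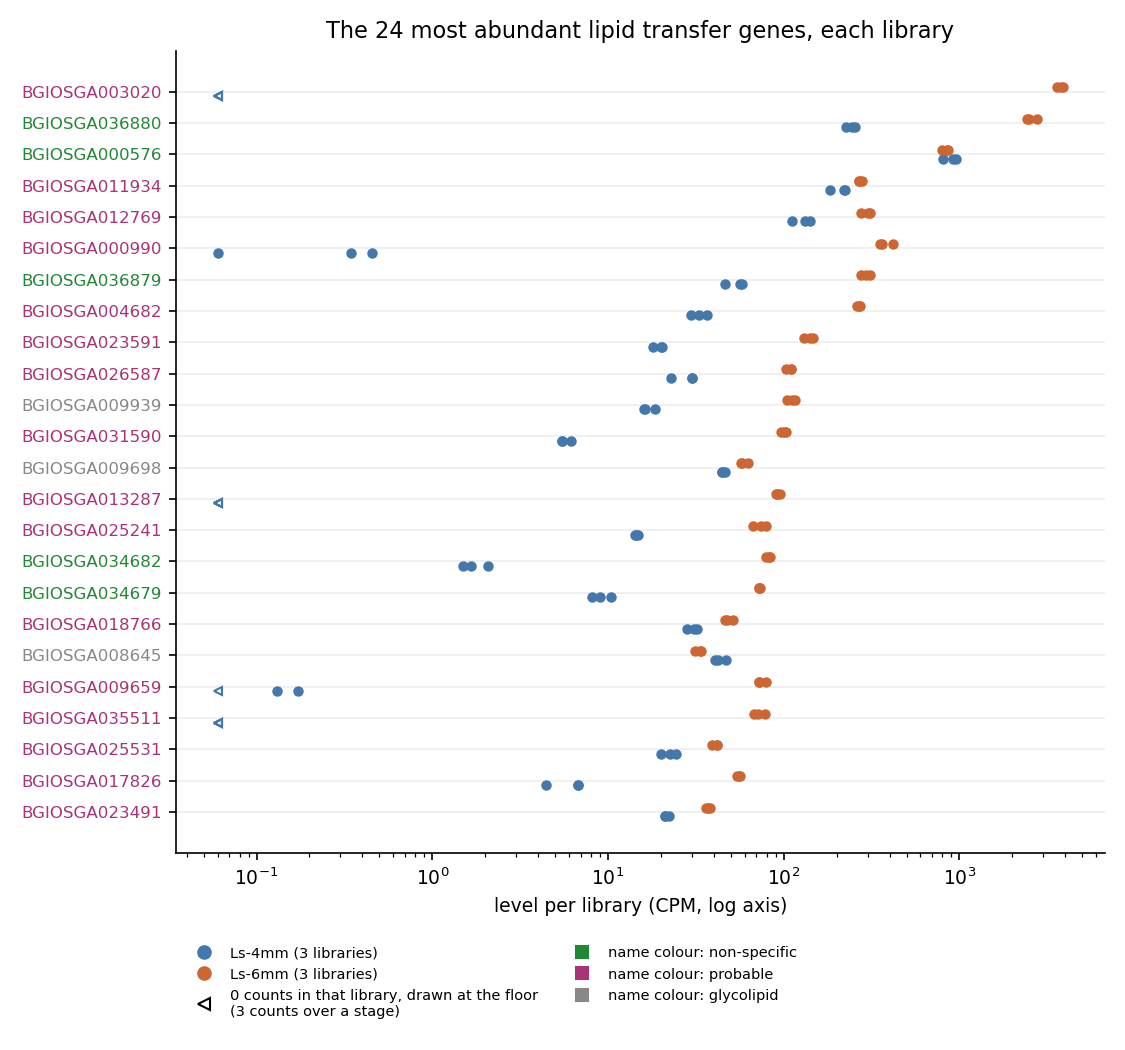
Level of the 24 most abundant lipid transfer genes in each library (x axis, CPM on a log axis; 1 row per gene, with the name coloured by type). Points are single libraries of Ls-4mm or Ls-6mm, and open triangles are libraries with 0 counts drawn at the floor; BGIOSGA003020 stands at 3579 to 3862 CPM in Ls-6mm with no count in Ls-4mm, while BGIOSGA000576 overlaps between stages and BGIOSGA008645 is lower in Ls-6mm.

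Most non-specific genes lie in a pair of arrays, in which members start within 100 kb of each other. The array on chromosome 11 (362930 to 417364) holds 6 non-specific genes and that on chromosome 12 (902192 to 961306) holds another 6. In the first, 4 genes were tested and the 4 rose, and the array went from 10.9, 13.7 and 11 CPM to 183, 183 and 179 CPM. In the second, 3 were tested and the 3 rose, from 272, 304 and 312 CPM to 3079, 2782 and 2728 CPM. The counts were shared out differently, since BGIOSGA034682 held 44.8% of the summed CPM of the first array in Ls-6mm and BGIOSGA036880 held 89.7% of the second.

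Levels were uneven along both arrays. On chromosome 12 the first pair of genes was abundant, and the 3 that follow BGIOSGA036881 had almost no counts. BGIOSGA036882 had 0, 4 and 1 counts in Ls-6mm, BGIOSGA036883 had 1, 0 and 1, BGIOSGA036886 had 8, 2 and 8, and each had 0 in Ls-4mm. On chromosome 11, BGIOSGA034684 had 2, 4 and 1 counts in Ls-4mm and 6, 12 and 6 in Ls-6mm, and BGIOSGA034687 had 13, 8 and 5 in Ls-6mm and 0 in Ls-4mm. These 5 genes did not have enough counts to be tested.

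**Figure D3:**
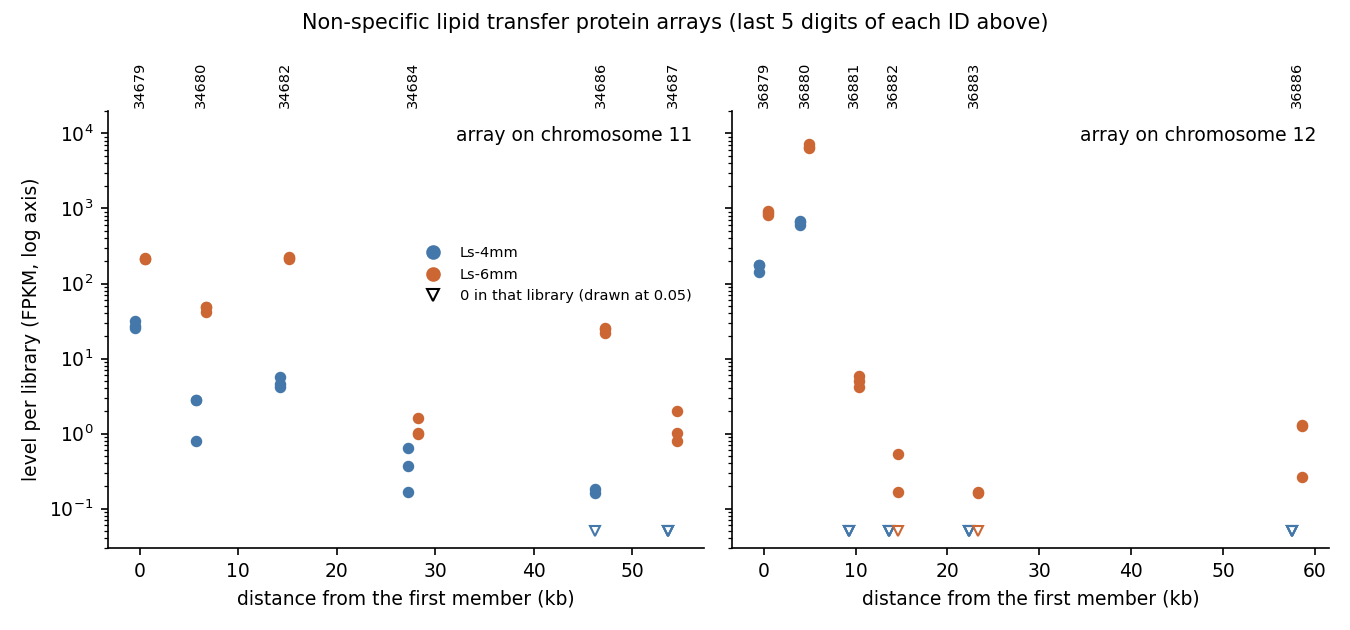
Level per library of each non-specific gene in the arrays on chromosome 11 (left) and chromosome 12 (right), as deposited FPKM on a log axis against the distance of its start from that of the first member in kb. Points are libraries of Ls-4mm or Ls-6mm, and open triangles mark libraries at 0; BGIOSGA036880 reaches a mean of 6726 FPKM in Ls-6mm, and the members that follow BGIOSGA036881 on chromosome 12 stay near 0.

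The probable type covered the widest range of levels and changes. Of its 64 genes, 40 were tested, 33 rose, 3 fell and 4 did not pass the test, with a median log2 fold change of 2.82. Levels of at least 100 CPM were reached by 2 of the 64 in Ls-4mm and by 7 in Ls-6mm. The abundance of the type in Ls-6mm was led by BGIOSGA003020 (chromosome 1 from 7015934 to 7016408, coding length 372 bases), which had 0 counts in each library of Ls-4mm and 3801, 3579 and 3862 CPM in those of Ls-6mm. It was at least 61991-fold higher in Ls-6mm (edgeR adjusted p = 1.75e-21) and held 62.5% of the type's summed level there.

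Several other probable genes also went from silence or near silence to high levels. BGIOSGA000990 (chromosome 1 from 31837317 to 31838397) had 0.455, 0.346 and 0.0591 CPM in Ls-4mm and 420, 351 and 363 CPM in Ls-6mm, a log2 fold change of 10.35 ± 0.15 (SE, edgeR adjusted p = 3.62e-19). BGIOSGA013287 (chromosome 3 from 30380671 to 30381515) had no counts in Ls-4mm and 94.9, 89.8 and 91.5 CPM in Ls-6mm and was at least 1523-fold higher (edgeR adjusted p = 2.18e-17). The spread between libraries of Ls-6mm was small beside these levels. BGIOSGA035511 (chromosome 11 from 18691847 to 18692840) also had no counts in Ls-4mm. It was at 71.7, 67.7 and 78.7 CPM in Ls-6mm and so at least 1203-fold higher (edgeR adjusted p = 3.93e-16). It is the one gene of the family whose protein the study lists by name, among the proteins that rose most from Ls-6mm to Ls-8.5mm. In that listing the protein was still almost absent in Ls-6mm, so the listing covers a later interval than this RNA change. BGIOSGA013262 (chromosome 3 from 29982035 to 29982754) followed at 16.7, 17.5 and 13.6 CPM and at least 264-fold higher (edgeR adjusted p = 1.67e-12), and BGIOSGA025240 (chromosome 7 from 3824684 to 3825819) at 12.7, 11.3 and 9.77 CPM and at least 186-fold higher (edgeR adjusted p = 8.59e-12). These 2 bounds do not place them above BGIOSGA009659 (chromosome 3 from 37294873 to 37295508), named after its values were seen, which rose from 0.13, 0.173 and 0 CPM to 79.3, 72.6 and 72.3 CPM, a log2 fold change of 9.43 ± 0.18 (SE, edgeR adjusted p = 1.1e-17).

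Such changes were counted over the whole table with fixed levels. Of the 56 tested lipid transfer genes, 12, or 21.4%, had a mean below 1 CPM in Ls-4mm and of at least 5 CPM in Ls-6mm, and 10 of the 12 were of the probable type. Of all genes tested, 851, or 3.59%, did so. The reverse change was found in none of the lipid transfer genes and in 48 of all genes tested. Counts in Ls-6mm with none in Ls-4mm were found in 16 of the 89, of which 8 were not tested. Counts in Ls-4mm with none in Ls-6mm were found in 4, of which none had enough counts to be tested. The same was not counted over all gene models, and the libraries of Ls-6mm held more counts. Among the 56 tested, 8 had no counts in Ls-4mm and 0 had none in Ls-6mm, where 617 and 25 of the 23691 genes tested did.

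Other probable genes were already well expressed in Ls-4mm and rose by less. BGIOSGA011934 (chromosome 3 from 4076312 to 4078220), the most abundant of the type in Ls-4mm, had 183, 220 and 222 CPM there and 278, 268 and 267 CPM in Ls-6mm, a log2 fold change of 0.38 ± 0.06 (SE, edgeR adjusted p = 9.25e-06). BGIOSGA012769 (chromosome 3 from 17071404 to 17073833) went from 111, 141 and 132 CPM to 311, 276 and 301 CPM, a log2 fold change of 1.21 ± 0.07 (SE, edgeR adjusted p = 2.17e-11). Their stages did not overlap, although the changes were small beside those of the silent genes. BGIOSGA004682 (chromosome 1 from 38084036 to 38085041) rose from 29.7, 36.5 and 33.0 CPM to 273, 261 and 269 CPM, BGIOSGA023591 (chromosome 6 from 31906704 to 31907968) from 18.1, 20 and 20.4 CPM to 142, 130 and 146 CPM, and BGIOSGA026587 (chromosome 8 from 28333381 to 28335798) from 22.7, 29.9 and 30.2 CPM to 110, 103 and 110 CPM. Their log2 fold changes were 3.01 ± 0.06, 2.83 ± 0.06 and 1.95 ± 0.08 (SE, edgeR adjusted p of 1.20e-17, 7.73e-17 and 2.06e-13), so each stood clear of the spread between libraries. BGIOSGA031590 (chromosome 10 from 18280080 to 18280361), at 282 bases the shortest coding sequence among the probable genes that rose, went from 6.18, 5.48 and 5.44 CPM to 103, 95.9 and 100 CPM (log2 fold change 4.13 ± 0.07, SE, edgeR adjusted p = 3.84e-18).

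The 3 probable genes that fell were all of low to moderate level. BGIOSGA020317 (chromosome 5 from 28624367 to 28624651) had 7.48, 6.35 and 7.44 CPM in Ls-4mm and 3.52, 3.05 and 3.44 CPM in Ls-6mm, and its log2 fold change of -1.09 ± 0.15 (SE, edgeR adjusted p = 4.61e-06) was the only fall of at least 2-fold among the 56. BGIOSGA005038 (chromosome 1 from 43542236 to 43542547) had 17.1, 14 and 17.6 CPM in Ls-4mm and 12.8, 12.8 and 10.7 CPM in Ls-6mm, at a log2 fold change of -0.42 ± 0.11 (SE, edgeR adjusted p = 0.00229). BGIOSGA020318, the neighbour of BGIOSGA020317 on chromosome 5, had 1.76, 2.19 and 2.01 CPM and then 1.49, 1.03 and 1.11 CPM (log2 fold change -0.72 ± 0.25, SE, edgeR adjusted p = 0.0151). For each of the 3 the stages did not overlap. Without the first library of Ls-6mm, 6 probable genes fell. The call of BGIOSGA020318 was the least secure, since it was lost with DESeq2 (adjusted p = 0.0951), without the second library of Ls-4mm (edgeR adjusted p = 0.0571) and without the second of Ls-6mm (edgeR adjusted p = 0.0656).

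Of the 4 probable genes that did not pass, none had a mean above 3 CPM. BGIOSGA005036 was at 2.08, 2.60 and 2.54 CPM in Ls-4mm and 2.33, 2.22 and 2.70 CPM in Ls-6mm (edgeR adjusted p = 0.987), and the ranges overlapped almost fully. BGIOSGA016380 was at 0.976 to 1.12 CPM and 1.17 to 1.38 CPM (edgeR adjusted p = 0.361). BGIOSGA023474 (0.825 ± 0.225 and 0.449 ± 0.233 CPM, SD, n = 3) and BGIOSGA011591 (1.06 ± 0.295 and 0.721 ± 0.530 CPM), the latter named after its values were seen, were called lower without the first library of Ls-6mm (edgeR adjusted p of 0.0286 and 0.0127), and BGIOSGA023474 also without replicate 3 of Ls-4mm (edgeR adjusted p = 0.0462), with library size alone (edgeR adjusted p = 0.0328) and with limma on log2(FPKM + 1) (adjusted p = 0.0444).

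**Figure D4:**
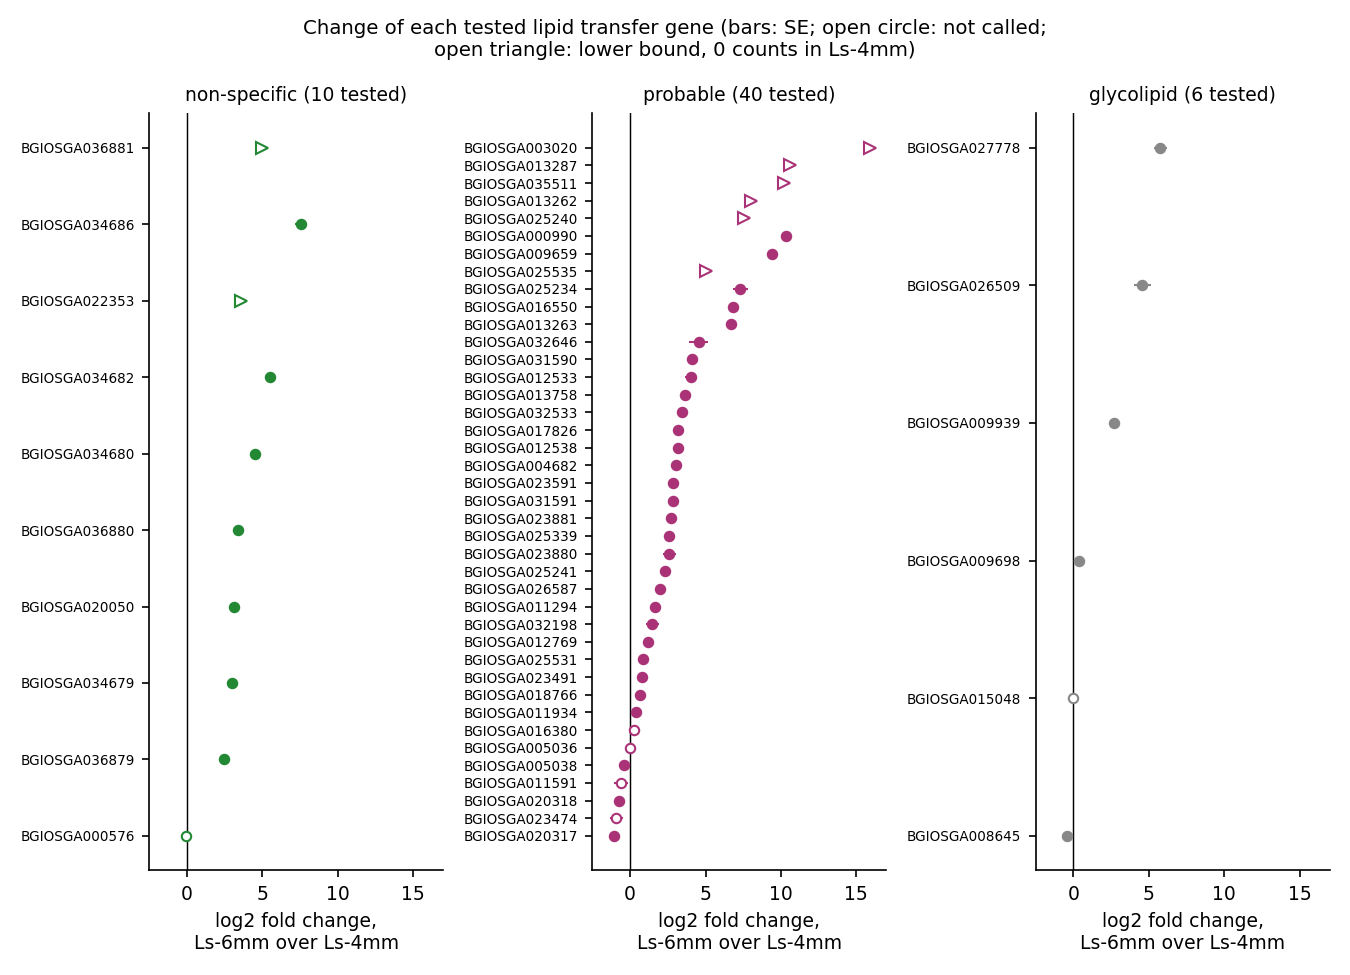
Log2 fold change of each tested gene, Ls-6mm over Ls-4mm (x axis), in 3 panels by type; bars are SE from the edgeR fit, open circles did not pass the test, and open triangles are lower bounds for genes with 0 counts in Ls-4mm. Of the 56 genes, 46 rose and 4 fell, and the fall of BGIOSGA020317, at a log2 fold change of -1.09, is the only one of at least 2-fold.

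The glycolipid transfer proteins moved in both directions, and the 2 most abundant in Ls-4mm changed little. Of the 7, 6 were tested, 4 rose, 1 fell and 1 did not pass, with a median log2 fold change of 1.55. Over all genes tested, 42% rose and 38.6% fell. BGIOSGA009939 (chromosome 3 from 32817006 to 32818638) rose from 16, 16.3 and 18.4 CPM to 116, 105 and 111 CPM, a log2 fold change of 2.71 ± 0.06 (SE, edgeR adjusted p = 2.09e-16), and without it the type's sum went from 89.6 ± 4.19 to 99.1 ± 3.07 CPM (SD, n = 3). BGIOSGA009698 (chromosome 3 from 36786123 to 36788261) rose from 46.1, 44.3 and 44.3 CPM to 56.9, 58.1 and 62.5 CPM (log2 fold change 0.40 ± 0.05, SE, edgeR adjusted p = 2.96e-06). BGIOSGA008645 (chromosome 2 from 26516625 to 26519226) fell from 47.1, 40.4 and 42.2 CPM to 31.1, 33.9 and 33.3 CPM (log2 fold change -0.40 ± 0.07, SE, edgeR adjusted p = 4.15e-05). These last 2 genes were of like level in Ls-4mm and changed by like amounts in opposite directions, with no overlap between stages for either. The other 2 that rose, BGIOSGA027778 and BGIOSGA026509 on chromosome 8, named after their values were seen, were near silent in Ls-4mm, at up to 0.115 and 0.231 CPM in a library. In Ls-6mm BGIOSGA027778 was at 4.00, 3.25 and 3.81 CPM and BGIOSGA026509 at 2.21, 2.51 and 1.47 CPM, each clear of its earlier range. BGIOSGA015048 (chromosome 4 from 19814490 to 19817869) was at 1.04, 1.04 and 1.95 CPM and 1.79, 1.13 and 1.11 CPM and did not pass the test (edgeR adjusted p = 0.971).

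Between genes, levels were compared per coding length with the deposited FPKM values. In Ls-4mm BGIOSGA000576 led at 2423 ± 184 FPKM (SD, n = 3) and ranked 10 among all genes, followed by BGIOSGA036880 at 652 ± 38.0, BGIOSGA011934 at 384 ± 37.6, BGIOSGA012769 at 233 ± 25.9 and BGIOSGA036879 at 165 ± 17.7 FPKM. The ranges of these neighbours over libraries did not overlap. In Ls-6mm BGIOSGA003020 led at 9654 ± 380 FPKM and ranked 4 among all genes, and BGIOSGA036880 came next at 6726 ± 462 FPKM and ranked 5. BGIOSGA000576 now followed at 2210 ± 88.7 FPKM and ranked 17 among all genes, and BGIOSGA036879 came after it at 873 ± 45.4 FPKM. Below these, BGIOSGA000990 at 567 ± 54.7, BGIOSGA012769 at 525 ± 31.3 and BGIOSGA011934 at 487 ± 10.7 FPKM were not separated from their neighbours in that order, since their ranges over libraries overlapped.

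Many genes of the family lie near another of their type. With starts within 100 kb, 41 of the 89 fell into 13 groups, each of 1 type. In 4 of the groups 1 gene was tested, and of the other 9, 7 had each tested gene rise, 1 had both fall, and 1 had a gene that fell beside one that did not pass. Since 46 of the 50 called genes of the family rose, few groups could hold both directions. Besides the arrays of non-specific genes, 5 probable genes lie together on chromosome 10 (18261157 to 18285894) and 5 on chromosome 7 (3768274 to 3829249). The first group went from 9.95, 9.92 and 9.57 CPM to 130, 121 and 125 CPM, with BGIOSGA031590 at 79.5% of its Ls-6mm level. Next to it BGIOSGA031591 rose from 3.06, 3.98 and 3.72 CPM to 27.2, 25.1 and 23.5 CPM, while BGIOSGA033237, BGIOSGA031593 and BGIOSGA031589 had at most 11 counts in a library. The second went from 14.5, 14.7 and 15.4 CPM to 96.6, 83.8 and 88.8 CPM. There BGIOSGA025241 rose from 14.2, 14.5 and 14.9 CPM to 79.8, 66.8 and 74.1 CPM, BGIOSGA025240 was the gene with no counts in Ls-4mm, and BGIOSGA025234 had 1 count in Ls-4mm and 3.70, 5.03 and 4.12 CPM in Ls-6mm.

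The smaller groups held 2 or 3 genes each. On chromosome 3, BGIOSGA013262 and BGIOSGA013263 together went from 0.0828 ± 0.0719 to 25.2 ± 3.11 CPM (SD, n = 3), and BGIOSGA012533 with BGIOSGA012538 went from 0.802 ± 0.400 to 8.55 ± 0.435 CPM. On chromosome 7, BGIOSGA023881 with BGIOSGA023880 went from 1.40 ± 0.237 to 8.90 ± 0.912 CPM, and BGIOSGA025534 with BGIOSGA025535 from 0 to 2.31 ± 0.157 CPM. The pair on chromosome 5, BGIOSGA020317 and BGIOSGA020318, was the one in which both genes fell, from 9.08 ± 0.477 to 4.55 ± 0.464 CPM. On chromosome 1, BGIOSGA005036 and BGIOSGA005038 went from 18.7 ± 1.83 to 14.6 ± 0.955 CPM. On chromosome 3, BGIOSGA012768, the neighbour of BGIOSGA012769, had 2 counts in all. Groups on chromosome 4 (BGIOSGA016377, BGIOSGA016378 and BGIOSGA016380, 1.39 ± 0.135 and 1.49 ± 0.231 CPM) and chromosome 6 (BGIOSGA023474 and BGIOSGA020664, 1.23 ± 0.486 and 0.619 ± 0.251 CPM) had 1 gene tested each, BGIOSGA016380 and BGIOSGA023474, and neither passed (edgeR adjusted p = 0.361 and 0.0622). BGIOSGA023474, with a log2 fold change of -0.92, did pass with library size scaling, with limma on log2(FPKM + 1) and without the third library of Ls-4mm or the first of Ls-6mm.

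Genes of the wider lipid pathways of the anther wall were set beside the family in 6 lists of genes, picked by words in their names and descriptions. Over the lists together 155 of 270 gene models were tested, 112 rose and 21 fell, where 42% and 38.6% of all genes did. Relatives of the same fold (17 tested) had 10 that rose and 4 that fell, at a median log2 fold change of 2.18. BGIOSGA014237, a hydrophobic seed protein, rose from 131, 158 and 147 CPM to 658, 660 and 659 CPM, and BGIOSGA031445 of the same kind rose from 0.776 ± 0.234 to 14.5 ± 0.869 CPM. BGIOSGA030292, also a hydrophobic seed protein, fell from 22.1, 23.6 and 25.3 CPM to 0.418, 0.936 and 1.35 CPM, and its libraries of Ls-6mm lay far below those of Ls-4mm. The log2 fold change of BGIOSGA030292 was -4.71 ± 0.19 (SE, edgeR adjusted p = 2.97e-13).

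Genes picked for making the lipids of the pollen wall and cuticle mostly rose. In the list picked for sporopollenin synthesis (14 tested) 10 rose and 1 fell, with a median log2 fold change of 1.32. The words polyketide synthase, used for this list, also match a domain name of fatty acid elongation enzymes, which the next list holds. Some of the tested genes are in both lists, so the count and median for sporopollenin include genes that may belong to elongation. The list was also picked by the words chalcone synthase, and whether each such gene makes sporopollenin was not tested. BGIOSGA024426, of the chalcone and stilbene synthase family, rose from 1.37, 0.750 and 0.709 CPM to 1368, 1277 and 1317 CPM, and BGIOSGA011938, a fatty acyl-CoA reductase, which makes fatty alcohols, from at most 0.065 CPM to 557, 563 and 498 CPM. Another fatty acyl-CoA reductase, BGIOSGA031292, was the one that fell, from 52.6 ± 2.73 to 32.3 ± 1.72 CPM. In long-chain acyl and wax synthesis (32 tested, 13 gene models in common with the former list) 24 rose and 2 fell, with a median of 1.44. Its most abundant gene, BGIOSGA011985, a 3-ketoacyl-CoA synthase of fatty acid elongation, rose from 287, 349 and 332 CPM to 979, 951 and 971 CPM. BGIOSGA021497 of the same enzyme family went from 1 count to 35.9 ± 1.93 CPM, while BGIOSGA031109 fell from 28.0 ± 1.97 to 11.1 ± 1.41 CPM. Both enzyme families held a gene that was near 0 in Ls-4mm and rose beside one that fell.

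The lipid export list holds genes described as ABC-2 type or ABC G family transporters, and what they carry was not tested. Of its 9 tested genes, 6 rose and 0 fell, with a median log2 fold change of 2.22. At an unadjusted p below 0.05, 0 were lower with edgeR, 0 with DESeq2 and 1 with limma. At an adjusted p, 0 were lower with each of these, but 2 with edgeR and library size alone. ABC transporter G family member 5 (BGIOSGA012359) went from 1 count to 23.4, 21.6 and 21.0 CPM. The most abundant of them, BGIOSGA014025, did not pass the test, at 67.6 ± 5.76 and 62.0 ± 2.51 CPM (edgeR adjusted p = 0.0623). It was called lower without the first library of Ls-4mm (edgeR adjusted p = 0.00261), without the first library of Ls-6mm (edgeR adjusted p = 0.0383), with no filter (edgeR adjusted p = 0.0188) and with library size alone (edgeR adjusted p = 0.000379). GDSL lipases, esterases of which some build cutin, came closest to the family, with 51 of 63 tested rising, 8 falling and a median of 3.08. Among them BGIOSGA013343 rose from 370 ± 36.2 to 515 ± 2.36 CPM, BGIOSGA023745 from 0 to 25.6 ± 0.887 CPM, at least 423-fold, and BGIOSGA027873 fell from 22.5 ± 2.71 to 7.48 ± 1.01 CPM.

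Lipid carriers that act inside cells were the last list. Of 25 tested, 14 (56%) rose and 6 (24%) fell, with a median log2 fold change of 0.35, the lowest of the 6 lists. BGIOSGA027603, an acyl-CoA binding protein, rose from 410 ± 9.31 to 522 ± 15.3 CPM, BGIOSGA009433, with a CRAL/TRIO lipid-binding domain, from 0.991 ± 0.110 to 6.35 ± 1.42 CPM, and BGIOSGA019650, with the same domain, fell from 163, 201 and 182 CPM to 47.7, 45.8 and 44.8 CPM. The differences between lists were not tested.

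**Figure D5:**
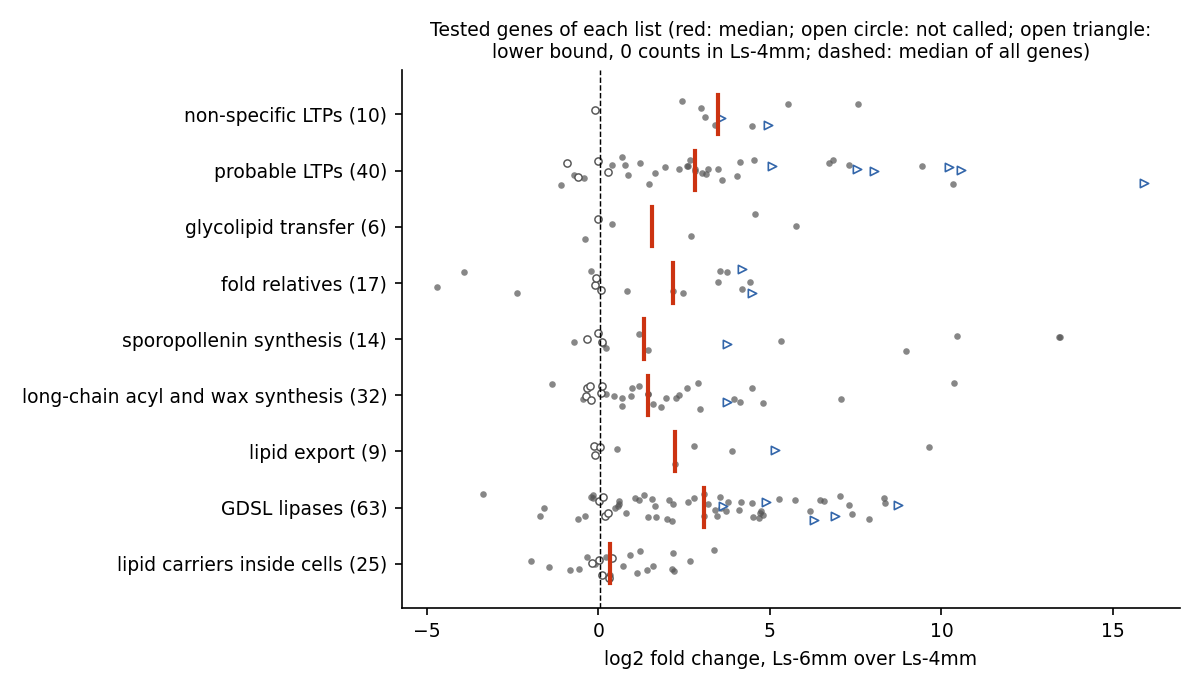
Log2 fold change, Ls-6mm over Ls-4mm (x axis), of each tested gene of the lipid transfer types and of 6 related lists, with the number tested in brackets. Open circles did not pass the test, open triangles are lower bounds for genes at 0 in Ls-4mm, red bars are list medians and the dashed line is the median of all genes at 0.04; the medians run from 0.35 for lipid carriers inside cells to 3.49 for the non-specific type.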

How the data were processed

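Anther mRNA of O. longistaminata was sequenced by the authors as paired-end Illumina reads. The deposited count values are whole, unscaled reads per gene, for which the submitters' notes name HISAT2 2.0.5 and featureCounts 1.5.0-p3. FPKM, also computed by the authors, divides by coding length. The strand setting of the counting was not given in the sources used here. Gene identifiers carry the prefix of O. sativa subsp. indica, while the study points to an O. longistaminata reference, so positions are printed as the table lists them and their assembly is not settled here. No sequence is printed.

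Libraries were assigned to stages by title. Ls-8.5mm was not analysed here, 36 columns of per-sample values were not used, and columns of the authors' own comparisons (fold changes and p-values) were not read. The test was edgeR 4.0.16 in R 4.3.3 (filterByExpr with minimum count 10 and minimum total 15, TMM, quasi-likelihood fit with stage as the only term). Called genes have a Benjamini-Hochberg adjusted p below 0.05 over 23691 genes. The fit was tried on simulated data with known changes in a small part of the genes. Most genes were called in the real data, so that trial does not check the scaling or the error rate here. Genes with 0 counts in a stage are given a bound against 3 counts over that stage, and ratios with 1 to 3 counts have exact intervals at 95%.

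The gene family, the lists and the tests were chosen with earlier results of these data known. Genes named are the 12 most abundant non-specific genes; of the others, the 10 most abundant, the 6 largest rises and falls by fitted fold change among called genes with at least 5 CPM in the higher stage and no overlap, and the 3 most abundant not called; genes in neighbour groups; BGIOSGA035511; and, of each related list, the most abundant gene and the largest called rise and fall with at least 5 CPM in the higher stage. Alternatives were DESeq2 1.42.0, RLE size factors, scaling by library size only, filters of none and of 10 counts in each library, a stricter threshold, the replicate number as a block, limma 3.58.1 on log2(FPKM + 1) and log2(FPKM + 0.1), and each library left out in turn. Added after seeing the data were the omission of genes sharing a UniProt entry and the same alternatives for the related lists.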

Additional observations from a re-analysis of the deposited data

How the results depend on the processing

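Of the 50 calls, 49 were kept with DESeq2 (BGIOSGA020318 was lost), and 50 were kept with RLE size factors, library size only, no filter and either limma fit. A minimum of 10 counts in every library, which drops genes at 0 in a stage by construction, left 26 calls of the family (22 higher), 5 of the non-specific type (5 higher), 18 of the probable type (15 higher), 3 of the glycolipid type (2 higher) and 85 of the related lists (72 higher, 13 lower). With no filter, which tests more genes, 8 of the family fell, 6 of them probable and 1 non-specific, and 14 non-specific genes were called. At an adjusted p of at most 0.001 and at least 2-fold, 1 gene of the family fell, 1 of the probable type and 0 of the glycolipid type, which kept 3 calls, and 9 genes of the related lists fell. Library size only gave 1 lower non-specific call. It put 46.2% of all calls higher, against 52.1% with TMM, and gave sums of 9629 CPM for the family and 5715 CPM for the probable type in Ls-6mm, and of 112 and 200 CPM for the glycolipid type in Ls-4mm and Ls-6mm. Without genes sharing a UniProt entry, 5 non-specific genes were called, 5 of them higher.

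Leaving out 1 library at a time gave 49 to 53 calls of the family, with 46 higher each time and 3 to 7 lower, 0 to 1 lower for the non-specific type and 2 to 6 lower for the probable type. Without the most abundant gene of each stage and type, the sums in Ls-4mm and Ls-6mm were 984 and 6352 CPM for the family, 310 and 1326 for the non-specific, 360 and 2247 for the probable and 61.6 and 99.1 for the glycolipid type. A pair of uncalled genes near 0 changed sign. The log2 fold change of BGIOSGA015048 was 0.01 with DESeq2, 0.00 with RLE, 0.05 with 10 counts in every library, 0.01 with the replicate block and -0.27 to 0.35 when 1 library was left out. That of BGIOSGA005036 was 0.01 with DESeq2, 0.01 with RLE, 0.06 with 10 counts in every library, 0.00 with the replicate block and -0.10 to 0.06 when 1 library was left out. Beyond construction, the cause was not tested.

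Replicate numbers are shared by the stages, but same-numbered libraries did not deviate together (correlations of -0.0283, -0.0129 and -0.00884), so they were not taken as pairs. The replicate block gave 50 calls of the family, the same genes as without it, with 46 higher and 4 lower.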

Other observations

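Within the probable type, changes differed with coding length, in a split at 400 coding bases chosen after the values were seen. Of the 15 tested probable genes with a shorter coding sequence, 9 rose, 3 fell and 3 did not pass the test, with a median log2 fold change of 0.86. Of the 25 with a longer one, 24 rose, 0 fell and 1 did not pass, with a median of 3.15. Of all genes tested, 42% rose and 38.6% fell. The probable genes that fell (BGIOSGA005038, BGIOSGA020317 and BGIOSGA020318) have coding sequences of 285 to 312 bases, and in each the gene's span equals its coding length, so the model holds no intron. The same holds for 6 of the 33 probable genes that rose and for 2 of the 4 that did not pass. The gene with the highest level in Ls-6mm, BGIOSGA003020, also has a short coding sequence, of 372 bases. The 9 non-specific genes that rose have coding sequences of 321 to 417 bases, with a median of 357. These are descriptions, since the split had the changes in view.

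Of the genes of other families inside the arrays, the few that could be tested did not rise. Over all genes tested, 42% rose and 38.6% fell. In the array on chromosome 12, 5 other gene models lie between the lipid transfer genes, 2 were tested and the 2 fell, and in the group on chromosome 7, 6 others lie between, 3 were tested, 2 fell and 1 did not pass. In the arrays on chromosomes 10 and 11 none of the 1 and 4 other gene models had enough counts to be tested. Few genes stand behind this, and it was looked for after the rise of the arrays was known.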
